A study of Mus musculus with 2 samples.

Results

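The distal microRNA cluster of the imprinted Dlk1-Dio3 region was examined as a run of 37 loci, from Mir379 to Mir410, among the 1973 microRNA loci counted in small RNA libraries of mouse hindbrain. The cluster lies on chr12:109709060-109743795 (GRCm38) and spans 34.736 kb, with all 37 loci on the plus strand. Members were chosen by position alone: every counted row whose Ensembl identifier maps to a microRNA gene of this stretch in the GENCODE M21 annotation. Of the 37, 24 lie upstream of the long noncoding RNA gene Mirg, outside annotated genes, and 13 lie within it, 4 of them in an exon, 4 partly in an exon and 5 in an intron.

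The libraries were made from total RNA of B6NCrl mouse hindbrain (the region that becomes the medulla, pons and cerebellum) at embryonic day 14.5, with no treatment or transgene given. They keep RNA under 30 nucleotides, the size of mature microRNAs. There is 1 group with 2 replicate libraries, collected 6 days apart (24 and 30 July 2014), so levels and the difference between the libraries are described and no conditions are compared. The labels name the libraries biological replicates 1 and 2. They also call each sample a single hindbrain and pooled male and female, with the same donor entry for both. Whether the animals were separate is open, so n and SD measure the spread between these samples, which may be technical. Collection day cannot be told apart from replicate.

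The Dlk1-Dio3 region is imprinted: its protein-coding genes are read from the paternal chromosome, and its noncoding RNAs, this cluster among them, from the maternal one. The microRNAs are thought to be cut from long transcripts that run through Meg3, Rian and Mirg, and the cluster is best known from the brain, where the transcription factor Mef2 drives it in active neurons and miR-134 acts on dendrites and spines. A hairpin gives a 5p and a 3p arm, and bases 2 to 8 of the arm, the seed, do most of the target recognition. The counts are per locus and do not separate the arms.

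Mature sequences of 36 of the 37 members, 67 arms of 19 to 25 nucleotides, stand in the RefSeq table for GRCm38.p6. Because these lengths are so alike, levels of different members were compared without dividing by length. Both arms stand in the table for 31 members. The 3p arm of Mir487b is among those absent from it. The arms of the 5 members with the highest levels are printed first, 5′ to 3′, with the seed in capitals.
miR-487b-5p: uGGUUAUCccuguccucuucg
miR-411-5p: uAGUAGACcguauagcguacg
miR-411-3p: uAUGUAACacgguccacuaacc
miR-376a-5p: gGUAGAUUcuccuucuaugagu
miR-376a-3p: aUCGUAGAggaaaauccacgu
miR-369-5p: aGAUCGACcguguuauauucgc
miR-369-3p: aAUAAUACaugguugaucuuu
miR-382-5p: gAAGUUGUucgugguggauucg
miR-382-3p: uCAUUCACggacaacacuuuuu

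Seeds of arms absent from the table could not be compared, so shared seeds may be missed. The 67 arms in the table carried 62 different seeds, and 5 seeds occurred in 2 members each. These pairs are shown because an identical seed can give shared targets. The seed AUGUAAC is in miR-379-3p and miR-411-3p, GGUAGAC in miR-379-5p and miR-1193-5p, GGUUGAC in miR-1197-5p and miR-758-5p, GGUUGCC in miR-453 and miR-496a-5p, and GGUUGUC in miR-494-5p and miR-410-5p. No microRNA outside the cluster in the table has any of these 5 seeds.
miR-379-5p: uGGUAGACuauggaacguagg
miR-1193-5p: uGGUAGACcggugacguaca
miR-379-3p: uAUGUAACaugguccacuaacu
miR-758-5p: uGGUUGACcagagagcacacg
miR-1197-5p: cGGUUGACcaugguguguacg
miR-494-5p: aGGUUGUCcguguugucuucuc
miR-410-5p: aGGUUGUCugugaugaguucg
miR-496a-5p: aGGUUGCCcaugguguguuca
miR-453: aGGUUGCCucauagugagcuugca

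In addition, miR-376c-5p has the seed of miR-376b-5p and miR-299a-3p that of miR-299b-3p, 2 microRNAs encoded in the same stretch that are not members. Another 10 arms share a seed with a microRNA encoded elsewhere, among them miR-495-3p with miR-1192, miR-329-3p with miR-362-3p and miR-410-3p with miR-344d-3p and miR-344e-3p. Likeness between members reached beyond the seed in miR-300-3p and miR-381-3p, which share a run of 16 of their 22 bases while their seeds differ.
miR-300-3p: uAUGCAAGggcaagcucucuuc
miR-381-3p: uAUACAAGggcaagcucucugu

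The cluster held 8.23% ± 0.738 of the counts on microRNA loci (SD, n = 2). The share was 7.71% in replicate 1, with a 95% Clopper-Pearson interval from 7.68 to 7.73, and 8.75% in replicate 2, with one from 8.73 to 8.77. Locus counts totalled 5893618 in replicate 1 and 6756282 in replicate 2, and levels are given as CPM, the count of a locus per 1000000 of these. Intervals cover counting error only, since no molecular identifiers were counted. Reads that mapped to several places (33.9% and 34.3% of the reads of replicates 1 and 2) belong to no locus. A run of 20 bases is shared with another hairpin by the hairpins of 5 members, which are Mir487b and Mir376c (both with Mir376b), Mir411 and Mir758 (with each other) and Mir299a (with Mir299b on the opposite strand). In the mature arms of 4 of them that stand in the table, the longest run shared with another hairpin was shorter: 8 and 12 bases in miR-411-5p and miR-411-3p, 13 in each arm of miR-758, 13 in miR-487b-5p and 18 of 22 in miR-376c-5p. The arms of miR-299a share 21 (5p) and 18 (3p) bases with those of miR-299b. Whether reads of these members were lost to several places was not tested. The cluster's share was 4.37% without those 5 members, since Mir487b and Mir411 are among them, and 3.98% with all reads as the denominator.

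Of the 37 members, 33 were detected, meaning at least 10 counts in each library, against 405 of the 1973 loci of the tables. The median level of the detected members was 484.5 CPM, and that of all detected loci 130.2 CPM. Levels ran over 3 orders of magnitude: 1 member lay above 10000 CPM, 13 between 1000 and 10000, 14 between 100 and 1000, and 5 between 10 and 100. The leading member stood 62.5-fold above the median of the detected members.

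Mir487b alone made up 36.8% of the cluster's counts in each library. Its level was 28370 CPM in the first library and 32197 CPM in the second (30283 ± 2706, SD, n = 2), and it ranked 8 among all loci. No other member came near it in either library, and the next highest, Mir411, reached at most 7948 CPM. Mir487b lies at 109727333 to 109727414, upstream of Mirg. Without Mir487b the leading member stood 16.3-fold above the median.

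A second tier of 4 members followed, with overlapping levels. Mir411 had 6171 and 7948 CPM in replicates 1 and 2. Mir376a, of a family whose precursors are known for adenosine-to-inosine editing in brain, had 5975 and 7342 CPM. Mir369 had 5666 and 7026 CPM, and Mir382, the first member inside Mirg, had 5844 and 6687 CPM. The ranges of these neighbours in rank overlapped in each case, and Mir369 and Mir382 changed places between the libraries. With Mir487b these 4 held 67.5% of the cluster's counts in replicate 1 (67.4 to 67.6) and 69.9% in replicate 2 (69.8 to 70.1).

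The next 5 members lay between 1647 and 5133 CPM. Mir381, also an edited microRNA of brain, had 4980 and 5133 CPM and did not overlap with either neighbour in rank. Mir409 had 3662 and 4115 CPM and Mir541 3863 and 3517 CPM, so that each was the higher of the pair in 1 library. Mir379, the first hairpin of the cluster, had 2633 and 3054 CPM. Mir154, whose family name is often given to the related hairpins of the cluster, had 1647 and 1744 CPM. With these 5 the 10 leading members held 89.3% of the cluster's counts in replicate 1 and 90.0% in replicate 2.

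**Figure D1:**
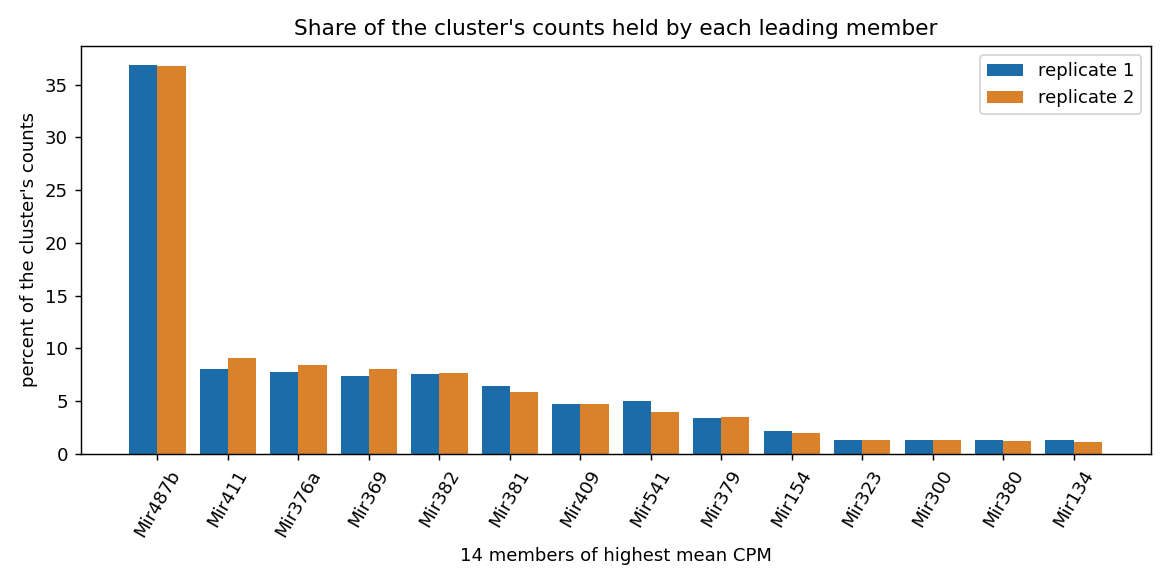
Percent of the cluster's counts (vertical axis) held by each of the 14 members of highest mean CPM, with 1 bar per library. Mir487b stands at 36.8% in both libraries and each other member at 9.08% or less.

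Mir134, which restrains dendritic spine growth through Limk1, stood 14th of the cluster with 1026 and 1015 CPM. Its level was close to those of Mir323 (1058 and 1186 CPM), Mir300 (1045 and 1153 CPM) and Mir380 (1055 and 1053 CPM). Mir323 overlapped Mir300 in level, as did Mir300 and Mir380. Mir134 lay below Mir380 in both libraries.

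Below 1000 CPM the levels fell off in small steps. Mir299a had 667 and 670 CPM and Mir376c 533 and 580 CPM. Mir1193 had 477 and 492 CPM. Mir543 had 353 and 411 CPM and Mir496a 283 and 313 CPM. These 2 microRNAs are, with miR-369, reported regulators of N-cadherin in the developing cortex, and their mean levels were below that of Mir369. Mir485, which acts on the synaptic vesicle protein SV2A, had 286 and 296 CPM, overlapping with Mir496a. Mir329, a regulator of dendritic growth, had 217 and 208 CPM.

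A further 7 members lay close together between 102 and 175 CPM, where the order is mostly unsettled. Mir668 had 160 and 174 CPM, Mir667 166 and 166 CPM, and Mir410, the last hairpin of the cluster, 141 and 175 CPM. Mir495, which can target Bdnf, had 138 and 162 CPM, Mir494 had 149 and 144 CPM, Mir666 had 121 and 147 CPM and Mir412 had 102 and 112 CPM. All neighbours in rank from Mir668 down to Mir666 overlapped, while Mir412 did not overlap with Mir666. Over the 33 detected members, 12 of the 32 pairs of neighbours in rank overlapped, and 24 kept their order in both libraries.

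The weakest detected members were Mir539 (74.5 and 84.1 CPM), Mir377 (71.4 and 72.1), Mir679 (61.4 and 58.6), Mir758 (43.4 and 45.9) and Mir544 (20.5 and 21.8, from 121 and 147 counts). None of these 5 overlapped with another of them. Mir1197 had 9 counts in replicate 1 and 17 in replicate 2 and so missed the limit in 1 library. The predicted microRNA Gm27379 had 3 and 2 counts. Mir654 and Mir453 had 0 counts in both libraries, where the upper limit of the level is 0.509 CPM for replicate 1 and 0.444 CPM for replicate 2. Mir376b has no row in the tables and was not analysed here.

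**Figure D2:**
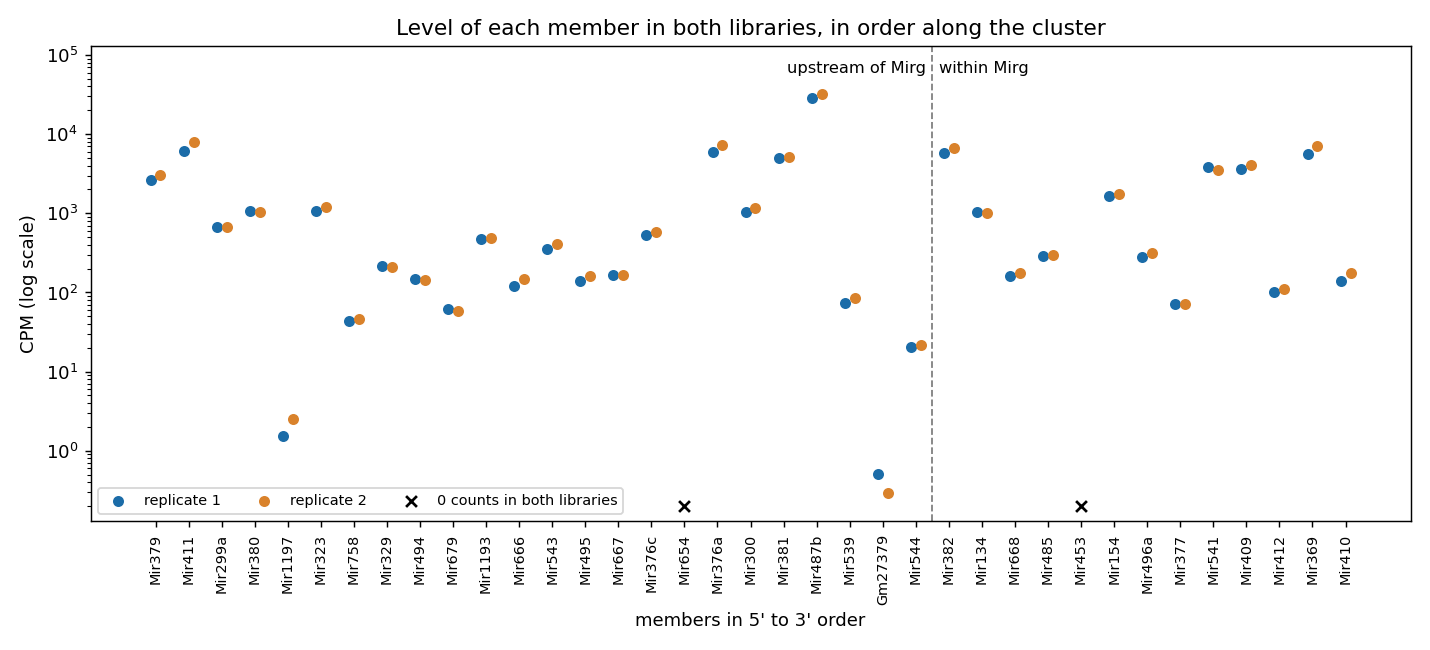
CPM on a log scale (vertical axis) of the 37 members in their order along the cluster, with 1 point per library, and crosses for the 2 members with 0 counts. All members from Mir758 to Mir654 lie below 1000 CPM, and all from Mir376a to Mir487b lie above it. Mir487b is highest, and Mir1197 and Gm27379 are lowest among those with counts.

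Level did not rise or fall steadily along the cluster, but stretches of like level occurred. All members from Mir758 to Mir654 lay below 1000 CPM, and all from Mir376a to Mir487b lay above it. Spearman's rho of mean CPM and position over the 33 detected members was 0.007, a description, since the members share both libraries. Members next to each other were almost as unlike as any pair: the median absolute log2 difference in CPM was 2.38 over the 32 adjacent pairs and 2.66 over all 528 pairs. Wide steps occurred over short and long distances. The widest was from Mir487b to Mir539, which lie 714 bases apart, with a 382-fold lower mean CPM in Mir539. The next was the 296-fold step from Mir544 up to Mir382, across 4368 bases, the longest distance between adjacent detected members. Mir377 and Mir541, 1831 bases apart, differed 51.4-fold. The last 4 hairpins alternated between high and low levels over short distances. Mir409 and Mir412 lie 52 bases apart and differed 36.3-fold in mean CPM, Mir412 and Mir369 lie 49 bases apart and differed 59.3-fold, and Mir369 and Mir410 lie 218 bases apart and differed 40.2-fold. The median level was 484.5 CPM over the 21 detected members upstream of Mirg and 659 CPM over the 12 within it.

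Members that share a seed also differed in level. Mir411 had 2.48 times the mean CPM of Mir379, with which it shares the 3p seed, and Mir379 had 5.87 times that of Mir1193, with which it shares the 5p seed. Mir494 and Mir410 were close, with means 1.08-fold apart and overlapping libraries. Mir758 had 43.4 and 45.9 CPM and its partner Mir1197 1.53 and 2.52 CPM. Mir496a had 283 and 313 CPM, while its partner Mir453 was at 0.

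The hairpins share more than the seeds. Over the 34 member hairpins in the RefSeq table, 3 runs of 6 bases were found in the most members. The first, UACUUG, was in 10 hairpins (29.4%). The next, UUCGCU, was also in 10, with 5 members common to both lists, and the third, UCGCUU, overlaps it and occurred in the same 10. Only the strand of the hairpin was searched. Of the 971 other mouse hairpins in the table, with chr18 left out, 16 held UACUUG (1.65%) and 4 held UUCGCU (0.412%). These runs were picked as the most frequent in the cluster, so the shares are a description with no test. Hairpins with UUCGCU are those of Mir323, Mir329, Mir543, Mir495, Mir487b, Mir382, Mir154, Mir377, Mir369 and Mir410, which ranged from 71.8 CPM for Mir377 to 30283 CPM for Mir487b. Median GC content was 43.4% in the member hairpins and 51.9% in the others, and GC content and level were nearly unrelated over the 31 detected members with a hairpin in the table (Spearman's rho -0.10).

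Strand was clean for the members counted under their own name. The 33 members read from the gene-strand column had 387244 counts in replicate 1 and 502173 in replicate 2, and 0 counts on the opposite strand in both, which allows a share of up to 0.000775% and 0.000597%. Over all loci, the opposite strand held 1.99% and 2.21% of counts. The other 4 members, Mir376a, Mir409, Mir380 and Mir299a, have no row of their own, and their counts were read from the opposite-strand column of the antisense loci that overlap them (Gm25252, Gm24321, Gm25750 and Mir299b). These rows held 66947 counts in replicate 1 and 89051 in replicate 2, which was 14.7% and 15.1% of the cluster. Of all opposite-strand counts on loci they made up 56.5% and 59.2%. With the gene-strand column for these 4 rows the cluster's share was 7.09% and 29 members were detected.

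Between the libraries the members differed by little: the widest ratio among those whose 2 counts both reached 100 was that of Mir411, at 1.25-fold. Several leading members were higher in replicate 2 than counting error gives, among them Mir411, Mir376a and Mir369, and Mir541 was lower. An exact binomial test, two-sided, set the 2 counts of each locus against library sizes scaled by TMM, with Benjamini-Hochberg adjustment at 0.05 over the 501 loci that had 10 or more counts in sum, 34 of them members. By this test 13 members were higher in replicate 2, where 17.8% of all loci were higher, and 1 was lower, where 15% of all loci were lower, and 20 did not pass. In either direction 14 of the 34 passed, where 32.7% of all loci passed. When the limit on the 2 counts together was raised from 10 to 100, 15 of 33 members passed, where 52.1% of all loci passed. The members thus passed more often than all loci at the limit of 10 and less often at 100. No excess of the cluster over all loci is drawn from these shares. The test compares these 2 libraries and covers counting error only.

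No member passed when the spread between the libraries was counted as noise. The edgeR exact test with a common dispersion, equal to a coefficient of variation of 10.8%, called 0 of the 34 members (0 at an unadjusted p under 0.05), where it called 1.4% of all loci. The dispersion came from these libraries themselves, taken as 1 group, so the difference under test is part of the noise it is set against. A result of 0 from this test therefore cannot show that the members were unchanged.

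Mir411 had the highest log2 ratio among members with at least 100 counts in each library, with 36372 counts in replicate 1 and 53698 in replicate 2. Replicate 2 was higher by 1.25-fold (log2 ratio 0.33 with an exact 95% interval of 0.31 to 0.34, binomial test with Benjamini-Hochberg adjusted p = 3.53e-243). Mir410 followed with 829 and 1184 counts and a log2 ratio of 0.28 (0.15 to 0.41), then Mir369 with 33396 and 47472 counts and 0.27 (0.25 to 0.29). Mir376a had 35212 and 49605 counts and 0.26 (0.24 to 0.28), and Mir666 had 713 and 995 counts and 0.24 (0.10 to 0.38). These 5 passed the binomial test, and they include 3 of the 4 members of the second tier as well as 2 of low level.

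The other members that were higher by the binomial test had log2 ratios between 0.10 and 0.19. They were Mir495 (0.19), Mir543 (0.18), Mir379 (0.17), Mir382 (0.15), Mir487b (0.14, interval 0.13 to 0.15), Mir409 (0.13), Mir323 (0.13) and Mir300 (0.10). With upper quartile scaling, 6 of the 13 no longer passed, and the split over the cluster was 7 higher and 9 lower. In either direction 37.9% of all loci passed with that scaling, and the median log2 ratio of all loci was -0.09.

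Mir541 was the only member lower in replicate 2 by the binomial test, with 22769 counts in replicate 1 and 23763 in replicate 2. Its log2 ratio was -0.17 (-0.20 to -0.15, adjusted p = 6.15e-38 by that test). It lies 659 bases before Mir409, which was higher. The next lowest, Mir679 (-0.11, -0.32 to 0.10), Mir329 (-0.10, -0.21 to 0.01), Mir494 (-0.09, -0.22 to 0.04) and Mir134 (-0.06, -0.11 to -0.01), did not pass. Mir381 had a log2 ratio of 0.00 (-0.02 to 0.03) from 29350 and 34680 counts, and Mir485 had 0.01 (-0.09 to 0.10).

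**Figure D3:**
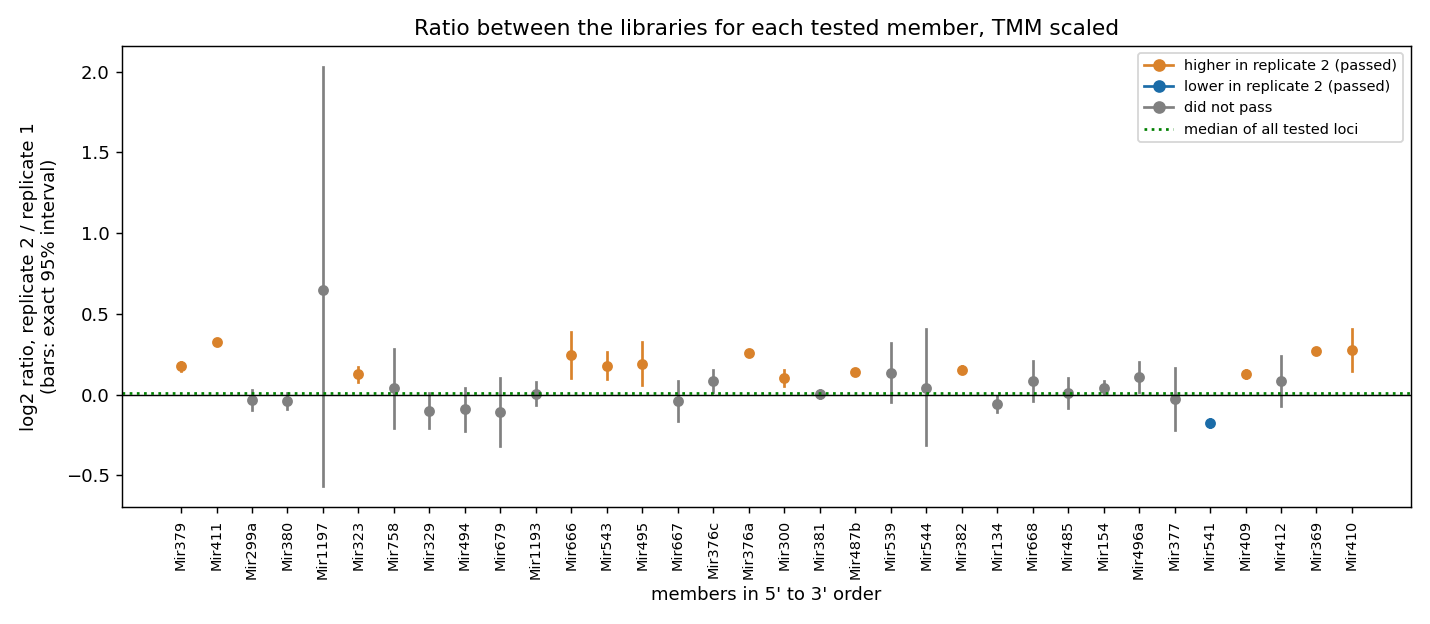
Log2 ratio of replicate 2 over replicate 1 after TMM scaling (vertical axis) of the 34 tested members in order along the cluster, with exact 95% intervals, which are narrower than the point for the most abundant members. Orange points passed the binomial test as higher in replicate 2 (13), the blue point as lower (Mir541), and grey points did not pass. The dotted line is the median of all tested loci.

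The median log2 ratio over the 34 members was 0.08, against 0.01 over all 501 loci, and 25 members lay above 0, but with upper quartile scaling the member median was -0.015 and the median of all loci -0.09. The scalings move all loci alike, so the members' median lay 0.07 above that of all loci under TMM, library totals, DESeq2 size factors and upper quartile, and 22 of the 34 members lay above the median of all loci under each. The SD of the log2 ratio was 0.12 over the 33 members with 100 or more counts per library and 0.22 over all 286 such loci. It was 0.17 over 13 such loci of the proximal group of the same region and 0.09 over 4 imprinted loci of other regions, so a value under that of all loci was not particular to the cluster. Upstream of Mirg 9 of 22 tested members were higher and 0 lower, and within Mirg 4 of 12 were higher and 1 lower, beside 17.8% higher and 15% lower over all loci. The difference between these stretches was not tested, and neither was that from all loci, of which a larger part had low counts.

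Other measures differed between the libraries as well. The red cell microRNAs Mir451a, Mir144 and Mir486, all 3 detected, had a sum of 275 CPM in the first library and 381 CPM in the second. Mir486 went the other way, with 17.1 and 12.7 CPM, and did not pass the binomial test. Of the 12 neural and hindbrain marker loci with a row, 10 were detected, and their sum was 194433 CPM in replicate 1 and 157248 CPM in replicate 2, set mostly by Mir10a and Mir10b. Other loci of the same list were higher in replicate 2 by the binomial test: Mir137 had 9586 and 10505 CPM, Mir153 had 1943 and 2519 CPM, Mir128-1 had 1642 and 1875 CPM and Mir128-2 had 961 and 1129 CPM. Mir219a-2 (2764 and 2407 CPM) and Mir9-3 (521 and 499 CPM) were lower. Few counts fell on Mir124a-1 (44 and 53), Mir124a-2 (19 and 20), Mir124a-3 (5 and 8) and Mir9-2 (9 and 10). Whether their reads were lost to several places was not tested. The endothelial Mir126a had 31422 and 36203 CPM, and the smooth muscle and mesenchyme list (3 of 3 detected) summed to 6762 and 7041 CPM. That sum was set mostly by Mir143 (6400 and 6707 CPM), while Mir214 was lower by the binomial test (241 and 201 CPM). The epithelial list (5 of 5 detected) summed to 61.1 and 75.5 CPM, and liver Mir122 had 13.6 and 15.5 CPM. Few counts fell on the skeletal muscle markers, with Mir1a-1 and Mir133a-1 at 0 and Mir206 at 14.8 and 16.0 CPM. Whether reads of Mir1a-1 and Mir133a-1 were lost to several places was not tested either. The part of these differences in the ratios of the cluster was not tested. In whole tissue, fewer cells that make a microRNA and less of it per cell cannot be told apart.

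The proximal group of the same imprinted region, which lies upstream around Rtl1 and Meg3, was set beside the distal cluster. Its 19 rows held 1.98% of the counts in replicate 1 and 2.21% in replicate 2, less than the distal cluster. The 15 detected proximal members had the higher median, 829 CPM. All 19 rows were read from the gene-strand column, also that of Mir3071, the antisense locus that overlaps Mir136. Mir136 has no row under its own name. The identifier version of the Mir3071 row differs from that of the annotation, so its counts may be those of Mir3071 or of Mir136. Whether reads of Mir136 are missing from the proximal share was not tested. The group was led by Mir127, antisense to the imprinted gene Rtl1, with 6621 and 7471 CPM. By the binomial test 6 of the 15 were higher in replicate 2, 2 were lower and 7 did not pass, with a median log2 ratio of 0.12. Of all loci, 17.8% were higher and 15% lower by that test. The edgeR exact test with common dispersion called 0 of the 15 (0 at an unadjusted p under 0.05), where it called 1.4% of all loci.

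Imprinted microRNAs of other regions, 5 loci at Mest, Gnas, Igf2 and H19, held 3.63% of the counts in replicate 1 and 3.44% in replicate 2, led by Mir335 of Mest with 27697 and 26488 CPM. By the binomial test 0 were higher and 4 were lower in replicate 2, and 1 did not pass, with a median log2 ratio of -0.14. Of all loci, 17.8% were higher and 15% lower by the same test. The edgeR exact test with common dispersion called 0 of these 5 loci too (0 at an unadjusted p under 0.05), where it called 1.4% of all loci. The difference between these loci and the distal cluster was not tested.

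**Figure D4:**
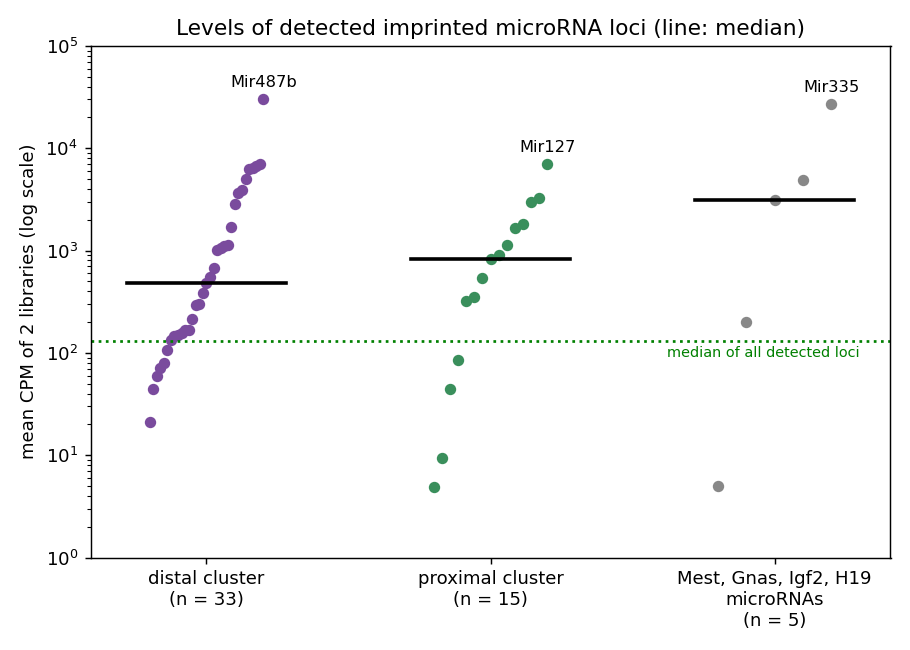
Mean CPM of both libraries on a log scale (vertical axis) for each detected locus of the distal cluster (33), the proximal group (15) and the 5 microRNAs of Mest, Gnas, Igf2 and H19, sorted by level within each group. Black lines are group medians, and the dotted line is the median of all detected loci, 130.2 CPM, which lies below all 3 medians.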

How the data were processed

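The authors deposited raw counts of reads for each microRNA locus, without normalization, in 3 columns (both strands, and each strand alone). The build is mm10, per the labels. Aligner and counter: not given in the sources used here. The 33 members listed under their own identifier were read from the strand column with the larger total, and 4 from the other. CPM divides by the summed locus counts under this rule. Reads assigned to no locus (unmapped 13.8% and 15.9%, multimapping 33.9% and 34.3%, outside listed loci 1.99% and 2.26% in replicates 1 and 2) stayed out.

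GENCODE M21 gave names and positions, matched on the identifier without its version for 1894 of 1973 rows (for 13 members the version differs). Mir3072, beyond Mir410, was not counted as a member. The log2 ratios add 0.5 to each count. With 1 library on each side, edgeR's quasi-likelihood test could not be fitted. All 37 members could be named, with values per library for the 15 highest, those read from the opposite strand, sharing a seed, nearest the detection limit, of most extreme ratio, and 8 studied in neurons. Members and lists were chosen with earlier results of these data known. The binomial test was checked on simulated counts with known library sizes and counting error only. The edgeR exact test was not checked in this way. Alternatives covered strand, denominator, copies, count minimum, filter, scaling, pseudocount, dispersion and leaving out each library. Statistics used edgeR 4.0.16 and DESeq2 1.42.0 in R 4.3.3, and scipy 1.17.1, pandas 2.3.3 and numpy 2.4.6 in Python 3.11.15. Figures used matplotlib 3.10.9.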

Additional observations from a re-analysis of the deposited data

Results flagged for a closer look

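Mir299b, the locus antisense to Mir299a, had counts on its own strand, which no comparison above uses: 5 in replicate 1 and 7 in replicate 2, more than the 3 counts that a count of 0 allows. The opposite strand of the same row, read here as Mir299a, had 3933 and 4529 counts. The mature arms of both loci share a run of 21 bases in the 5p arm and 18 bases in the 3p arm.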

How the results depend on the processing

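The cluster's share of 8.23% moved to 7.09% with the gene-strand column for all rows, 3.98% of all reads and 4.37% without the members that have a copy, which also took the share of the leading 5 members to 64.5%. Both shares stayed within 1 SD with counts of both strands, as did the first with uniquely placed reads as the denominator. Leaving out a library, which with 2 libraries cannot move a mean by 1 SD, gave 7.71% to 8.75% and 67.5% to 69.9%. The count of detected members stayed within 1.5 times under every alternative tried. The 14 calls of the binomial test, which 32.7% of all loci passed, became 0 with the edgeR exact test with common dispersion. That test called 1.4% of all loci, and its dispersion takes in the difference tested. Members called lower numbered 2 with DESeq2 size factors or a summed count of at least 100, and 9 with upper quartile, where 7 were higher. In either direction, 33.9% of all loci passed with DESeq2 size factors, 52.1% with a summed count of at least 100 and 37.9% with upper quartile. The median log2 ratio was 0.12 with library totals, 0.068 with DESeq2 size factors and -0.015, of the other sign, with upper quartile, where 6 of the 14 called members no longer passed. All 14 kept their direction and call under the other scalings, the pseudocounts and counts of both strands. Causes were not tested. Counting depth limits the ratios of the weaker members, whose intervals were as wide as -0.31 to 0.40 for Mir544, and the level of Mir1197. No paired analysis was possible because the series has 1 group.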
